A study of Mus musculus with 12 samples.

Results

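Imprinted genes are expressed mainly or only from the chromosome inherited from 1 parent. Described here are 38 mouse genes named as imprinted, out of 23354 genes present in all 12 libraries. These genes and the other lists below were chosen by gene symbol with earlier results of these data known. Shares of a list that were called therefore describe the list and do not test it. The libraries come from an mRNA sequencing study of J1 mouse embryonic stem cells. J1 is a male line of 129 background. All cells grew in serum and leukemia inhibitory factor on inactivated embryonic fibroblasts, called feeders, and were of the same line with no other genotype given. There were 6 groups of 2 libraries. The first 3 carried histone H3.1, a replication-dependent H3, as wild type (H3.1WT), with lysine 9 changed to methionine (H3.1K9M) or with lysine 36 changed to methionine (H3.1K36M). The other 3 carried a short hairpin RNA, which lowers its target mRNA: a negative control (shNC), one against Suv39h1 (shSuv39h1) or one against Suv39h2 (shSuv39h2). The sources used here do not give the promoter or level of the introduced histones, whether a group is 1 clone, or whether its libraries came from separate cultures, so p-values measure only the spread between these libraries. Of the 38 genes, 13 are classed here by their expressed copy as maternal, 21 as paternal and 4 as depending on the tissue or transcript. The class is that of tissues where the gene is imprinted. For Ube3a, Cd81 and Ppp1r9a, classed as maternal, these are the tissues named below. Each library gave 1 summed value per gene, so which copy was read was not measured, and parental origin below is textbook background.

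An imprinted locus is controlled by a stretch of DNA that is methylated on the copy from 1 parent, laid down in the egg or sperm and kept through the loss of methylation after fertilization. ZFP57, a zinc finger protein bound to a methylated hexamer at such regions, recruits TRIM28 and the H3K9 methyltransferase SETDB1 and keeps the mark in embryonic stem cells. Several clusters also make a long noncoding RNA from 1 copy, and growth factors, their receptors and growth inhibitors are frequent among imprinted genes. Methionine at lysine 9 or lysine 36 of H3 is known to inhibit methylation of that residue on other H3 in the same cell, and SUV39H1 and SUV39H2 place H3K9me3, mainly in heterochromatin. No histone or DNA methylation was analysed here.

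The hexamer that ZFP57 is known to bind, TGCCGC with reverse complement GCGGCA, was sought on both strands in RefSeq promoter windows on GRCm38.p6 that run from 250 bases before to 50 bases after a gene start. Of 32851 windows, 11.6% held it, and so did 13.1% of 27025 genes. Of the 38 imprinted genes, 32 had a window and 11 of these, or 34.4%, held the hexamer: Grb10, Igf2, Mcts2, Meg3, Mest, Nap1l5, Nnat, Plagl1, Snrpn, Zdbf2 and Zim1. They were 8 of 17 matched paternal genes, 2 of 11 maternal genes and 1 of 4 others. The sequences shown belong to 4 of these genes whose mRNA passed a test in at least 1 comparison, each on the + strand with the hexamer in capitals. Mest lies at chr6:30737800-30738049 and has a hexamer starting 242 and another 67 bases before its start. Mcts2 lies at chr2:152686898-152687034, inside H13, with the hexamer 247 bases before the start. Its sequence is cut where an exon of the GENCODE annotation begins, before the RefSeq start from which the 247 bases are counted. Meg3 lies at chr12:109540746-109540995, with the hexamer 190 bases before the start. For Plagl1 a site of 30 bases at chr10:13090730-13090759 is shown, with the hexamer 90 bases before the start. A match describes these letters only.
Mest: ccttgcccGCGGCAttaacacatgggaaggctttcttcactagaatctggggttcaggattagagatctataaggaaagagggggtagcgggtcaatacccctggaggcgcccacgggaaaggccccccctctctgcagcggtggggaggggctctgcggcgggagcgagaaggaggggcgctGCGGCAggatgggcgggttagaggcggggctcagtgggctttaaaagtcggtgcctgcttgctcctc
Mcts2: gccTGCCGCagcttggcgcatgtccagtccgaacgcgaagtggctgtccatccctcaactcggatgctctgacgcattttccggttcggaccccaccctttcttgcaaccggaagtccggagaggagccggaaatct
Meg3: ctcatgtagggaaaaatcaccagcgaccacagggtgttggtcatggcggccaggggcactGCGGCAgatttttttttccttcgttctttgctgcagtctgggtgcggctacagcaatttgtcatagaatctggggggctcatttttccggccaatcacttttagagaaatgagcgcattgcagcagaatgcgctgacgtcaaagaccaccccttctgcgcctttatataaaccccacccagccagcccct
Plagl1: ctggcgtgttgcGCGGCAaagcccacggca

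Several of the imprinted transcripts that passed a test are also hosts of microRNAs, which were not measured in these mRNA libraries. Within gene bounds of the GENCODE annotation, on the same strand, lay 1 RefSeq hairpin in H19, 1 in Mest, 1 in Meg3, 3 in Rian and 14 in Mirg. Mature sequences from H19, Mest, Rian and Mirg follow, with the seed, bases 2 to 8, in capitals, and none from Meg3 is shown. The H19 pair lies on the - strand at chr7:142577112-142577133 (5p) and chr7:142577078-142577099 (3p), the Mest arm on the + strand at chr6:30741314-30741336 and the Rian arm on the + strand at chr12:109618305-109618326. Their seeds all differ. Within Mirg, 26 mature microRNAs had 25 seeds, and only miR-453 and miR-496a-5p shared one, GGUUGCC.
miR-675-5p: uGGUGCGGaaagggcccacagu
miR-675-3p: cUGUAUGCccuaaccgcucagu
miR-335-5p: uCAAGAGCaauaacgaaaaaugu
miR-370-3p: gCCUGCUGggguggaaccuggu
miR-453: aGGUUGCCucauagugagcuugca
miR-496a-5p: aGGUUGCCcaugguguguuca

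Levels are in FPKM, fragments scaled by transcript length and library depth, as deposited. From the steps between low values, a transcript of 2 kb at 1 FPKM was read from 41.7 to 55.2 fragments, and 12127 to 12519 genes reached 1 FPKM in a library. A gene was tested where at least 2 libraries reached 1 FPKM, which held for 13109 genes, and a difference was called at an adjusted p below 0.05 in limma. All 8 stem cell markers were above 1 FPKM in every library, with the lowest sum, 3156 FPKM, in H3.1K9M replicate 1 and 4080 to 5161 in the others. Of 30 fibroblast feeder markers, 28 were above 1 FPKM in every library, and the other 2, Fap and Lum, stayed under 1 FPKM and were each listed at 0 in 1 library. Transcripts of these markers were thus present throughout, and which cells made them was not tested. Their summed level was 752 and 1333 FPKM in H3.1WT, 2539 and 1214 in H3.1K9M, and 1702 and 1657 in H3.1K36M. In the knockdown arm it was 913 and 1332 FPKM in shNC, 987 and 594 in shSuv39h1, and 1311 and 1041 in shSuv39h2. In bulk RNA, fewer cells of a type and less RNA per cell cannot be told apart. Each hairpin target was lower in its own line: the shNC libraries held 8.58 and 7.52 FPKM of Suv39h1 and those of shSuv39h1 4.91 and 5.10, and for Suv39h2 the values were 4.80 and 4.78 FPKM in shNC but 1.61 and 1.76 in shSuv39h2. The Suv39h1 difference did not pass the test (log2 difference −0.59, SE 0.105, adjusted p = 0.0877), while that of Suv39h2 did (log2 difference −1.11, SE 0.0936, adjusted p = 0.000304). The H3.1K9M libraries stood apart, with a median absolute log2 difference of 0.41 between their values for the tested imprinted genes, where the other groups gave 0.03 (H3.1K36M) to 0.27 (shNC). Of the 33 tested imprinted genes, 13 had their highest value of all libraries in H3.1K9M replicate 1. That library also had the highest summed level of the feeder markers.

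Imprinted genes covered a wide range of levels in these cells. By their highest group mean, 10 genes reached at least 50 FPKM, 12 lay between 10 and 50, 11 between 1 and 10, and 5 stayed under 1. The 5 under 1 were Airn, the antisense noncoding RNA of the Igf2r cluster, Kcnq1ot1, the antisense noncoding RNA of the Kcnq1 cluster, Usp29, a ubiquitin protease gene sharing the promoter region of Peg3, Zim1, a zinc finger gene beside Peg3, and Nap1l5, a retrogene inside Herc3. They ranged from 0.240 to 1.29 FPKM for Airn, 0.109 to 0.242 for Kcnq1ot1, 0.0557 to 0.235 for Usp29, 0.403 to 0.987 for Zim1 and 0.339 to 0.955 for Nap1l5, and none entered the test. The highest medians over 12 libraries were those of Gnas (137 FPKM), Cd81 (122) and Snrpn (109.9), followed by Meg3 (81.2). The ranges of Gnas, Cd81 and Snrpn overlapped, so their order is not fixed beyond the spread. Both parental classes held genes of all levels.

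**Figure D1:**
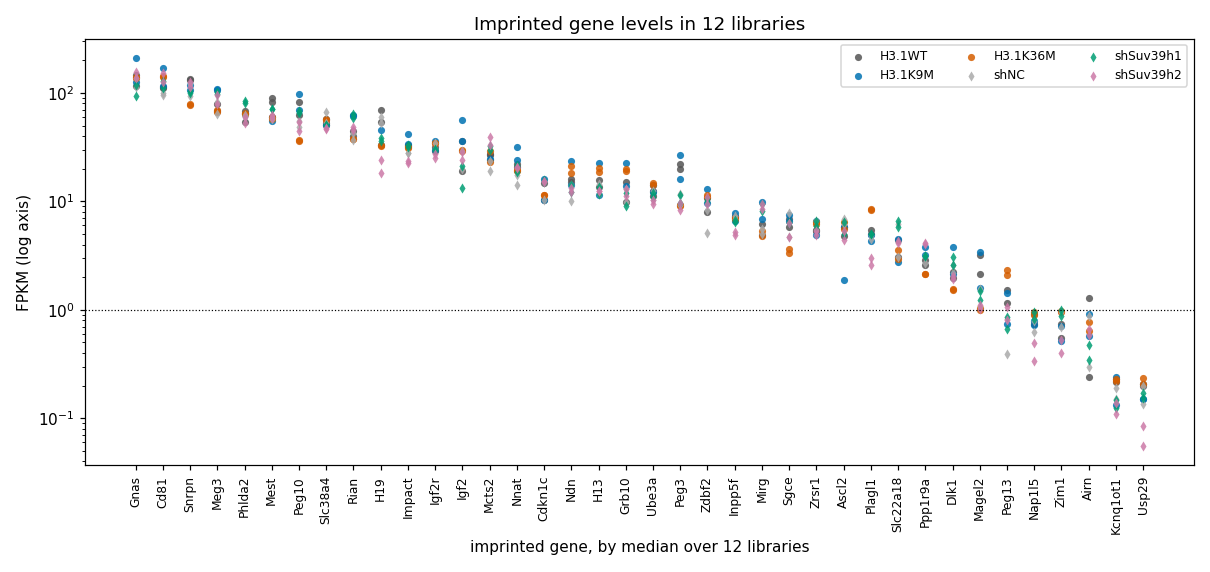
FPKM on a log axis for each of the 38 imprinted genes, ordered by the median over 12 libraries, with a point per library coloured by group and a dotted line at 1 FPKM. Medians run from under 1 FPKM for Airn, Kcnq1ot1, Usp29, Zim1 and Nap1l5 to over 100 FPKM for Gnas, Cd81 and Snrpn.

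Across 7 comparisons, 15 of the 33 tested imprinted genes passed at least once, with 27 calls in all. Since the genes were chosen with earlier results known, their shares beside those of all genes are descriptive only. For H3.1K36M against H3.1WT, 6 of 33 passed, or 18.2%, where 4.84% of all tested genes did. H19, Mest, Peg10, Peg3 and Snrpn fell, against 1.74% of all genes falling, and Plagl1 rose, against 3.1% rising. The median of the 33 was −0.05 on the log2 scale, beside 0.03 for all tested genes. Of all genes called, 64.0% rose, and 53.7% under quantile normalization. The calls were lost without either H3.1K36M library or without H3.1WT replicate 2, and some without H3.1WT replicate 1. Each of these fits leaves 1 library in a group. Without H3.1WT replicate 2, the log2 difference was larger than reported for Plagl1 (0.65) and Snrpn (−0.76). It was smaller for H19 (−0.70), Peg3 (−1.04), Peg10 (−0.76) and Mest (−0.48), and none changed direction.

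Without the shared control, H3.1K36M against H3.1K9M, 8 of 33 passed, or 24.2%, where 8.24% of all genes did. Meg3, Rian, Peg3, Peg10, Sgce, Ppp1r9a and Snrpn were lower in H3.1K36M, against 2.67% of all genes, and Plagl1 was higher, against 5.57%. The median was −0.11 on the log2 scale, beside 0.03 for all genes. Of all genes called, 67.6% were higher in H3.1K36M, and 55.5% with median-of-ratios scaling. Rian, Peg10 and Plagl1 passed in each of the 19 alternative fits and were the only 3 to pass without H3.1K36M replicate 1 or without H3.1K36M replicate 2. With a covariate for the feeder markers, 17 imprinted genes passed, while all genes called went from 1080 to 1949. The 9 added were Ascl2 and Peg13, higher in H3.1K36M, and Dlk1, Gnas, Igf2, Impact, Magel2, Mirg and Nnat, lower.

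For H3.1K9M against H3.1WT, Mest fell and was the only 1 of 33 to pass, where 0.313% of all genes passed and 0.29% fell. An unadjusted p below 0.05 was reached by 8 of the 33 and by 11.2% of all genes. The median was 0.12, beside −0.01 for all genes. The Mest call was lost without either H3.1WT library, without H3.1K9M replicate 1 and with the feeder covariate. It was also lost without either H3.1K36M library and without either shSuv39h1 library.

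In the knockdown arm, shSuv39h2 against shNC gave 5 of 33, or 15.2%, where 10% of all genes passed. H19, Plagl1 and Inpp5f fell, against 4.69% of all genes, and Mcts2 and Mirg rose, against 5.35%. The median was −0.05, beside 0.04 for all genes. Without shNC replicate 1 or without shSuv39h2 replicate 2, H19 and Plagl1 alone of these remained, and without shSuv39h2 replicate 1 H19 and Mcts2 did. With the feeder covariate 11 imprinted genes passed, adding Cd81, Nnat, Ppp1r9a and Zdbf2 upward and Impact and Slc38a4 downward, and 10 passed without H3.1K9M replicate 1 or without replicate 2. All genes called also went up, from 1316 to 2196 with the covariate and to 1998 and 2000 without those libraries. For shSuv39h1 against shNC, Rian rose and was the only 1 of 33 to pass, where 0.145% of all genes passed and 0.0839% rose. An unadjusted p below 0.05 was reached by 9 of the 33 and by 10.6% of all genes. Of the 19 genes called in all, 57.9% rose, but 42.1% with quantile normalization and 38.5% with median-of-ratios scaling. The Rian call was lost in 15 of 19 alternatives, among them those without either shSuv39h1 library and without either shNC library. Between the knockdowns, shSuv39h2 against shSuv39h1, 5 of 33 passed where 6.56% of all genes did. All 5 were lower in shSuv39h2: H19, Impact, Phlda2, Plagl1 and Rian, against 4.56% of all genes. None passed without shSuv39h1 replicate 1, without shSuv39h1 replicate 2 or without shSuv39h2 replicate 1, while Plagl1 and Phlda2 alone remained without shSuv39h2 replicate 2 and without either H3.1K36M library. Between the control lines, H3.1WT against shNC, Mest was higher in H3.1WT and was the only 1 of 33 to pass, where 0.336% of all genes passed and 0.214% were higher. Arm and line cannot be told apart there. It was lost without either H3.1WT library, without shNC replicate 1, without either H3.1K36M library and without either shSuv39h1 library.

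**Figure D2:**
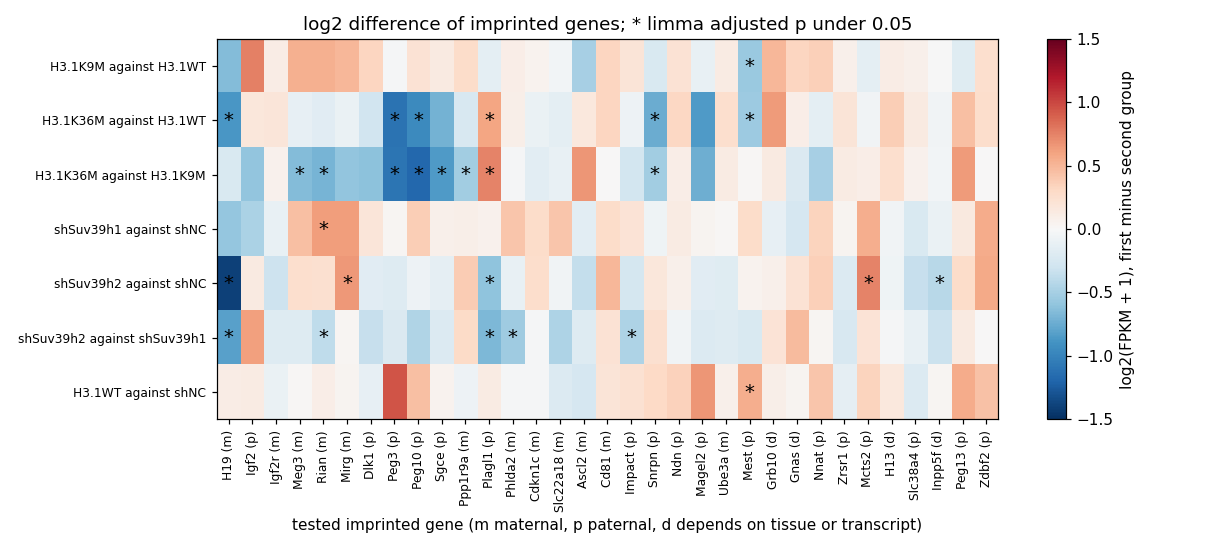
Log2 difference, first group minus second, on the log2(FPKM + 1) scale for the 33 tested imprinted genes (columns, with m for maternal, p for paternal and d for depends) in 7 comparisons (rows), with an asterisk where the limma adjusted p is below 0.05. Asterisks stand on 15 genes, with 8 in H3.1K36M against H3.1K9M, 6 in H3.1K36M against H3.1WT and 5 in each comparison of shSuv39h2.

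By parental origin, the calls for H3.1K36M against H3.1WT fell on 5 of 17 tested paternal genes (Mest, Peg10, Peg3, Snrpn and Plagl1), or 29.4%. They fell on 1 of 12 tested maternal genes (H19), or 8.33%, and on none of 4 others, where 4.84% of all tested genes were called. Those for H3.1K36M against H3.1K9M fell on 5 of 17 paternal genes (Peg3, Peg10, Sgce, Snrpn and Plagl1), or 29.4%. They fell on 3 of 12 maternal genes (Meg3, Rian and Ppp1r9a, the last imprinted in extraembryonic tissue), or 25%. Of all tested genes, 8.24% were called there. For shSuv39h2 against shNC they were 2 of 17 paternal genes (Plagl1 and Mcts2), or 11.8%, near the 10% of all genes called. The others were 2 of 12 maternal genes (H19 and Mirg), or 16.7%, and Inpp5f, 1 of 4 others. The medians for H3.1K36M against H3.1WT were −0.08 over the paternal and −0.10 over the maternal genes. Whether the classes differ was not tested.

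**Figure D3:**
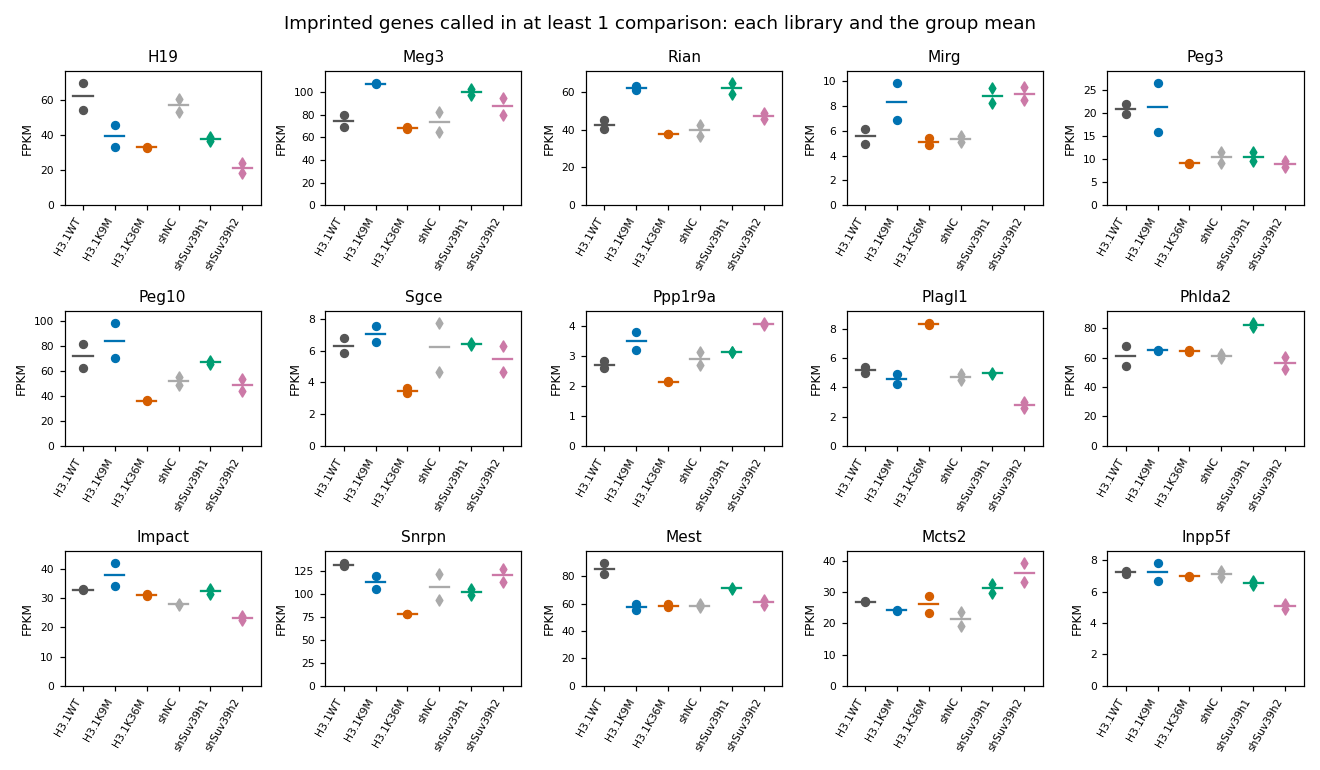
FPKM of the 15 imprinted genes called in at least 1 comparison, with a point per library, a bar at the group mean and an axis from 0. H19 is lower in all libraries of the 4 altered lines than in the 4 control libraries, and Plagl1 is highest in H3.1K36M and lowest in shSuv39h2.

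The H19 and Igf2 locus on chromosome 7 makes the maternal noncoding RNA H19 and, from the paternal copy, Igf2, a fetal growth factor. H19 stood at 54.5 and 69.6 FPKM in H3.1WT, 33.3 and 45.5 in H3.1K9M, and 32.7 and 33.5 in H3.1K36M. In the knockdown arm it stood at 60.6 and 53.3 FPKM in shNC, 38.7 and 36.4 in shSuv39h1, and 23.9 and 18.3 in shSuv39h2. No altered line overlapped its control, and the 4 control libraries held the highest 4 values of all. H19 was 1.88-fold lower in H3.1K36M than in H3.1WT (log2 difference −0.88, SE 0.171, adjusted p = 0.0203), and the adjusted p was 0.0618 with the feeder covariate. It was 2.70-fold lower in shSuv39h2 than in shNC (log2 difference −1.40, SE 0.171, adjusted p = 0.00196), a call kept in all 19 alternatives. It was also lower in shSuv39h2 than in shSuv39h1 (log2 difference −0.82, SE 0.171, adjusted p = 0.0251). The differences of H3.1K9M from H3.1WT (log2 difference −0.65, SE 0.171, adjusted p = 0.233) and of shSuv39h1 from shNC (log2 difference −0.59, SE 0.171, adjusted p = 0.272) did not pass. Igf2 stood at 19.05 and 35.7 FPKM in H3.1WT, 55.9 and 36.1 in H3.1K9M, and 29.2 and 29.9 in H3.1K36M. In the knockdown arm Igf2 was at 19.7 and 28.9 FPKM in shNC, 21.2 and 13.3 in shSuv39h1, and 28.7 and 24 in shSuv39h2. Its controls overlapped the altered lines in 3 of 4 contrasts, and none of the 7 comparisons passed. With the feeder covariate, whose limits are given below, Igf2 was lower in H3.1K36M than in H3.1WT (log2 difference −0.55, limma adjusted p = 0.0398). Igf2r, the maternal receptor that clears IGF2, was at 28.9 and 31.8 FPKM in H3.1WT, 36.4 and 29.9 in H3.1K9M, and 34.8 and 34.3 in H3.1K36M. It was at 34.8 and 30.3 FPKM in shNC, 30.4 and 29.5 in shSuv39h1, and 27.2 and 24.9 in shSuv39h2. Its lowest values were those of shSuv39h2, and no comparison passed.

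The Dlk1-Dio3 region on chromosome 12 makes a series of noncoding RNAs from the maternal copy, Meg3, Rian, which hosts small nucleolar RNAs, and Mirg, which hosts microRNAs, while the Notch-related growth regulator Dlk1 comes from the paternal copy. Rian stood at 45.1 and 40.2 FPKM in H3.1WT, 63.04 and 60.7 in H3.1K9M, and 37.9 and 37.5 in H3.1K36M. It stood at 42.6 and 36.9 FPKM in shNC, 64.5 and 58.8 in shSuv39h1, and 48.5 and 45.5 in shSuv39h2. The 4 libraries of H3.1K9M and shSuv39h1 were the highest, and neither group overlapped its control. Rian was 1.64-fold lower in H3.1K36M than in H3.1K9M (log2 difference −0.70, SE 0.0934, adjusted p = 0.00202), the call kept in all 19 alternatives. It was 1.55-fold higher in shSuv39h1 than in shNC (log2 difference 0.62, SE 0.0934, adjusted p = 0.0470) and lower in shSuv39h2 than in shSuv39h1 (log2 difference −0.38, SE 0.0934, adjusted p = 0.0421). The latter call was lost in 12 of 19 alternatives. Its H3.1K9M difference from H3.1WT did not pass (log2 difference 0.53, SE 0.0934, adjusted p = 0.0590).

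Meg3, a maternal noncoding RNA beside Rian, stood at 79.7 and 68.8 FPKM in H3.1WT, 108 and 107 in H3.1K9M, and 69.2 and 67.2 in H3.1K36M. It stood at 82.5 and 64.3 FPKM in shNC, 103 and 97.5 in shSuv39h1, and 94.97 and 79.97 in shSuv39h2. Its order of groups resembled that of Rian, with H3.1K9M and shSuv39h1 highest. Meg3 was lower in H3.1K36M than in H3.1K9M (log2 difference −0.65, SE 0.126, adjusted p = 0.0142), and its differences of H3.1K9M from H3.1WT (log2 difference 0.53, SE 0.126, adjusted p = 0.190) and of shSuv39h1 from shNC (log2 difference 0.45, SE 0.126, adjusted p = 0.248) did not pass. Mirg stood at 6.17 and 4.91 FPKM in H3.1WT, 9.82 and 6.83 in H3.1K9M, and 5.38 and 4.82 in H3.1K36M. It stood at 5.05 and 5.60 FPKM in shNC, 9.40 and 8.19 in shSuv39h1, and 9.52 and 8.42 in shSuv39h2. Both knockdowns lay above both shNC libraries, and shSuv39h2 against shNC passed, 1.68-fold higher (log2 difference 0.66, SE 0.160, adjusted p = 0.0312), a call lost in 7 of 19 alternatives: without a filter on low values, without either shNC library, without either shSuv39h2 library and without either H3.1K36M library. The Mirg difference of shSuv39h1 from shNC, of like size, did not pass (log2 difference 0.63, SE 0.160, adjusted p = 0.208). Nor did that of H3.1K36M from H3.1K9M, which did not overlap (log2 difference −0.60, SE 0.160, adjusted p = 0.0510). The latter passed with a pseudocount of 0.1, quantile normalization, median-of-ratios scaling, a replicate block and the feeder covariate. Dlk1, the paternal gene of the region, ranged from 1.53 to 3.79 FPKM, with its lowest values in H3.1K36M and its highest in H3.1K9M replicate 1, and it passed in none.

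On proximal chromosome 6, Peg10, a paternal gene derived from a retrotransposon and needed for the placenta, lies head to head with Sgce, the paternal gene for epsilon-sarcoglycan, and near Ppp1r9a, a neurabin gene imprinted in extraembryonic tissue. Peg10 stood at 62.1 and 82.1 FPKM in H3.1WT, 70.2 and 98.6 in H3.1K9M, and 35.9 and 36.5 in H3.1K36M. It stood at 48.5 and 55.4 FPKM in shNC, 65.8 and 68.5 in shSuv39h1, and 44.3 and 54 in shSuv39h2. The H3.1K36M libraries were the lowest of the 12. Peg10 was 1.99-fold lower in H3.1K36M than in H3.1WT (log2 difference −0.96, SE 0.173, adjusted p = 0.0145) and 2.33-fold lower than in H3.1K9M (log2 difference −1.18, SE 0.173, adjusted p = 0.00338). Sgce followed the same order in the first arm, at 6.82 and 5.82 FPKM in H3.1WT, 6.57 and 7.54 in H3.1K9M, and 3.31 and 3.62 in H3.1K36M. It was at 7.73 and 4.68 FPKM in shNC, 6.51 and 6.33 in shSuv39h1, and 6.29 and 4.65 in shSuv39h2, where the shNC libraries differed most from each other. Its difference between H3.1K36M and H3.1K9M passed (log2 difference −0.85, SE 0.193, adjusted p = 0.0269) and that from H3.1WT did not (log2 difference −0.71, SE 0.193, adjusted p = 0.0710). Ppp1r9a was at 2.86 and 2.59 FPKM in H3.1WT, 3.20 and 3.83 in H3.1K9M, and 2.15 and 2.12 in H3.1K36M. It was at 3.13 and 2.71 FPKM in shNC, 3.15 and 3.15 in shSuv39h1, and 4.11 and 4.04 in shSuv39h2. H3.1K36M was lowest and shSuv39h2 highest. Ppp1r9a passed between H3.1K36M and H3.1K9M (log2 difference −0.52, SE 0.105, adjusted p = 0.0163) and not between shSuv39h2 and shNC (log2 difference 0.38, SE 0.105, adjusted p = 0.0512).

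Peg3, a paternal gene for a large zinc finger protein, stood at 19.9 and 21.99 FPKM in H3.1WT, 16.1 and 26.6 in H3.1K9M, and 9.09 and 9.21 in H3.1K36M. It stood at 11.7 and 9.21 FPKM in shNC, 9.66 and 11.6 in shSuv39h1, and 9.68 and 8.29 in shSuv39h2. The H3.1K36M libraries lay below both H3.1WT libraries and within the range of the knockdown arm. Peg3 was 2.29-fold lower in H3.1K36M than in H3.1WT (log2 difference −1.11, SE 0.202, adjusted p = 0.0152), with an adjusted p of 0.0526 with the feeder covariate, and lower than in H3.1K9M (log2 difference −1.10, SE 0.202, adjusted p = 0.0115). Between the control lines Peg3 was at a mean of 20.96 FPKM in H3.1WT and 10.4 in shNC, which did not pass (log2 difference 0.95, SE 0.202, adjusted p = 0.115) and gave an adjusted p of 0.0337 with the feeder covariate. Mest, a paternal gene for a hydrolase-like protein named for mesoderm, stood at 81.96 and 89.5 FPKM in H3.1WT, 55.7 and 59.9 in H3.1K9M, and 57.4 and 59.8 in H3.1K36M. It stood at 57.4 and 59.8 FPKM in shNC, 70.8 and 71.6 in shSuv39h1, and 58.98 and 62.9 in shSuv39h2. The H3.1WT libraries were the highest of the 12, and those of H3.1K36M and shNC nearly coincided, a pair that was not tested. Mest was 1.46-fold lower in H3.1K36M than in H3.1WT (log2 difference −0.54, SE 0.0766, adjusted p = 0.00484), 1.48-fold lower in H3.1K9M (log2 difference −0.56, SE 0.0766, adjusted p = 0.0227), and 1.46-fold higher in H3.1WT than in shNC (log2 difference 0.54, SE 0.0766, adjusted p = 0.0226). The first pair share the H3.1WT libraries, and so does the control comparison.

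Snrpn, the paternal gene for a small nuclear ribonucleoprotein in the Prader-Willi and Angelman region of chromosome 7, stood at 134 and 131 FPKM in H3.1WT, 106 and 119.6 in H3.1K9M, and 78.3 and 78.3 in H3.1K36M. It stood at 93.7 and 122 FPKM in shNC, 98.9 and 105 in shSuv39h1, and 114 and 127 in shSuv39h2. The H3.1K36M libraries were the lowest of the 12 and lay within 0.1 FPKM of each other. Snrpn was 1.69-fold lower in H3.1K36M than in H3.1WT (log2 difference −0.75, SE 0.120, adjusted p = 0.00861) and lower than in H3.1K9M (log2 difference −0.52, SE 0.120, adjusted p = 0.0288). The other 3 genes of the 38 in that region did not pass in the fit reported. Ndn, a paternal MAGE family growth suppressor, was at 15.1 and 16.04 FPKM in H3.1WT, 23.3 and 14.2 in H3.1K9M, and 21.2 and 18.1 in H3.1K36M. It was at 10.2 and 14.3 FPKM in shNC, 14.3 and 12.3 in shSuv39h1, and 12.2 and 13.4 in shSuv39h2, and only H3.1K36M, of the 4 altered lines, did not overlap its control. Ube3a, a ubiquitin ligase whose imprint is limited to neurons, was at 11.3 and 12.6 FPKM in H3.1WT, 12.2 and 14.1 in H3.1K9M, and 14.1 and 14.7 in H3.1K36M. It was at 10.2 and 12.5 FPKM in shNC, 10.9 and 11.9 in shSuv39h1, and 9.47 and 10.2 in shSuv39h2, a narrow range over all groups. Magel2, another paternal MAGE gene, ranged from 0.988 to 3.38 FPKM and was lower in both H3.1K36M than in both H3.1WT libraries (log2 difference −0.85, SE 0.231, adjusted p = 0.0710, not passed). With the feeder covariate that difference passed (log2 difference −1.11, limma adjusted p = 0.0447).

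Plagl1, the paternal zinc finger transcription factor also called Zac1, was the only 1 of the 33 tested genes to pass upward for H3.1K36M against either H3.1WT or H3.1K9M. It stood at 4.98 and 5.43 FPKM in H3.1WT, 4.94 and 4.27 in H3.1K9M, and 8.43 and 8.32 in H3.1K36M. It stood at 4.53 and 4.90 FPKM in shNC, 5.03 and 4.96 in shSuv39h1, and 2.56 and 2.99 in shSuv39h2. The H3.1K36M libraries were the highest of the 12 and the shSuv39h2 libraries the lowest. Plagl1 was 1.61-fold higher in H3.1K36M than in H3.1WT (log2 difference 0.60, SE 0.101, adjusted p = 0.0112) and 1.82-fold higher than in H3.1K9M (log2 difference 0.74, SE 0.101, adjusted p = 0.00226), the latter kept in all 19 alternatives. In shSuv39h2 it was 1.70-fold lower than in shNC (log2 difference −0.60, SE 0.101, adjusted p = 0.00726), lost only without shSuv39h2 replicate 1 (adjusted p = 0.0622), and lower than in shSuv39h1 (log2 difference −0.67, SE 0.101, adjusted p = 0.00761).

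Mcts2, a paternal retrogene copy of Mcts1 that lies inside H13, stood at 26.8 and 27.1 FPKM in H3.1WT, 24.4 and 23.9 in H3.1K9M, and 23.3 and 28.9 in H3.1K36M. It stood at 19.1 and 23.5 FPKM in shNC, 32.8 and 29.8 in shSuv39h1, and 33.1 and 39.3 in shSuv39h2. All 4 libraries of the knockdowns lay above both shNC libraries. Mcts2 was 1.70-fold higher in shSuv39h2 than in shNC (log2 difference 0.74, SE 0.130, adjusted p = 0.00875), while the difference of shSuv39h1 did not pass (log2 difference 0.54, SE 0.130, adjusted p = 0.185). The value is uncertain, since reads may be shared with Mcts1, at 14.4 to 21.0 FPKM over the libraries, and with H13 on the same strand. H13, a signal peptide peptidase gene whose transcripts differ in their imprint, was at 13.7 and 15.9 FPKM in H3.1WT, 22.6 and 11.4 in H3.1K9M, and 18.5 and 20.2 in H3.1K36M. It was at 11.8 and 14.4 FPKM in shNC, 13.5 and 11.6 in shSuv39h1, and 12.4 and 12.4 in shSuv39h2 and passed in none. Inpp5f, a phosphoinositide phosphatase gene with 1 paternal transcript in brain, was at 7.13 and 7.34 FPKM in H3.1WT, 6.66 and 7.80 in H3.1K9M, and 6.95 and 6.99 in H3.1K36M. It was at 7.30 and 6.90 FPKM in shNC, 6.42 and 6.67 in shSuv39h1, and 5.21 and 4.90 in shSuv39h2. The shSuv39h2 libraries were the lowest of the 12, 1.40-fold below shNC (log2 difference −0.42, SE 0.0927, adjusted p = 0.0211). Zrsr1, a paternal retrogene copy of Zrsr2 inside Commd1, ranged from 4.86 to 6.66 FPKM and passed in none.

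In the Kcnq1 cluster some maternal genes restrain growth, such as Phlda2, an inhibitor of placental growth. Phlda2 stood at 67.9 and 54.2 FPKM in H3.1WT, 64.7 and 65.6 in H3.1K9M, and 65.04 and 63.7 in H3.1K36M. It stood at 62.5 and 59.9 FPKM in shNC, 83.6 and 80.9 in shSuv39h1, and 52.6 and 60.5 in shSuv39h2. The shSuv39h1 libraries were the highest of the 12. Phlda2 was lower in shSuv39h2 than in shSuv39h1 (log2 difference −0.54, SE 0.107, adjusted p = 0.0204), and shSuv39h1 against shNC did not pass (log2 difference 0.42, SE 0.107, adjusted p = 0.207). Cdkn1c, a cyclin-dependent kinase inhibitor, was at 14.8 and 10.3 FPKM in H3.1WT, 10.2 and 16.03 in H3.1K9M, and 11.5 and 11.4 in H3.1K36M. It was at 15.2 and 10.3 FPKM in shNC, 14.97 and 15.8 in shSuv39h1, and 15.3 and 15.2 in shSuv39h2, where the replicates of H3.1WT, H3.1K9M and shNC differed from each other as much as any groups did. Cd81, a tetraspanin imprinted in the placenta, was at 112 and 114 FPKM in H3.1WT, 170.4 and 117 in H3.1K9M, and 140.1 and 144 in H3.1K36M. It was at 100.3 and 96.7 FPKM in shNC, 129.9 and 110.3 in shSuv39h1, and 154 and 126 in shSuv39h2. Every altered line lay above its control, and no comparison passed (log2 difference 0.50, SE 0.161, adjusted p = 0.0839 for shSuv39h2 against shNC). Slc22a18, a transporter gene, ranged from 2.79 to 6.57 FPKM, and Ascl2, a trophoblast transcription factor, from 1.90 to 6.88, with its lowest value in H3.1K9M replicate 1.

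Impact, a paternal gene for an inhibitor of the GCN2 kinase, stood at 32.7 and 33.1 FPKM in H3.1WT, 42.03 and 34.2 in H3.1K9M, and 31.4 and 30.9 in H3.1K36M. It stood at 28.1 and 27.9 FPKM in shNC, 33.1 and 31.6 in shSuv39h1, and 23.8 and 22.6 in shSuv39h2. The shSuv39h2 libraries were the lowest of the 12, and Impact was lower there than in shSuv39h1 (log2 difference −0.46, SE 0.0942, adjusted p = 0.0223), while the difference from shNC did not pass (log2 difference −0.26, SE 0.0942, adjusted p = 0.116). Slc38a4, a paternal amino acid transporter gene, was at 52.9 and 50.2 FPKM in H3.1WT, 50.95 and 57.6 in H3.1K9M, and 56.1 and 57.1 in H3.1K36M. It was at 66.3 and 53.4 FPKM in shNC, 50.2 and 51.1 in shSuv39h1, and 46.1 and 47.2 in shSuv39h2, lowest in shSuv39h2, which did not pass against shNC (log2 difference −0.34, SE 0.103, adjusted p = 0.0665). Nnat, a paternal gene for a small membrane protein, was at 20.7 and 22.2 FPKM in H3.1WT, 23.9 and 32.1 in H3.1K9M, and 19.5 and 18.97 in H3.1K36M. It was at 17.7 and 14.2 FPKM in shNC, 18.8 and 21.6 in shSuv39h1, and 20.8 and 20.5 in shSuv39h2, with shNC lowest and no call. Zdbf2, a paternal zinc finger gene, was at 7.93 and 10.7 FPKM in H3.1WT, 13.03 and 9.59 in H3.1K9M, and 11.1 and 11.5 in H3.1K36M. It was at 5.12 and 8.33 FPKM in shNC, 10.4 and 9.84 in shSuv39h1, and 9.45 and 10.96 in shSuv39h2, with both shNC libraries below every other library of that arm and no call. Peg13, a paternal noncoding RNA within an intron of Trappc9, ranged from 0.390 to 2.31 FPKM, highest in both H3.1K36M libraries.

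Grb10 and Gnas, whose expressed copy depends on tissue or transcript, are given beside the feeder markers, and an association was not tested. Grb10, an adaptor that restrains insulin signalling, was at 9.80 and 15.2 FPKM in H3.1WT, 22.7 and 13.7 in H3.1K9M, and 19.8 and 19.2 in H3.1K36M. It was at 9.92 and 13.1 FPKM in shNC, 11.9 and 9.06 in shSuv39h1, and 13 and 11.3 in shSuv39h2. Gnas, the gene for the stimulatory G protein alpha subunit, was at 115 and 146 FPKM in H3.1WT, 209 and 126 in H3.1K9M, and 139 and 139 in H3.1K36M. It was at 114 and 139 FPKM in shNC, 119 and 93.6 in shSuv39h1, and 158 and 136 in shSuv39h2. Igf2, Grb10 and Gnas were each highest in H3.1K9M replicate 1, where the summed feeder markers were 2539 FPKM, and lowest in shSuv39h1 replicate 2, where they were 594 FPKM. In H3.1K36M, with markers at 1702 and 1657 FPKM, Grb10 was above every library but H3.1K9M replicate 1. Gnas there lay below its 158 FPKM in shSuv39h2 replicate 1, where the markers were at 1311 FPKM. The feeder markers had a median log2 difference of 0.75 for H3.1K9M and 0.72 for H3.1K36M against H3.1WT, −0.47 for shSuv39h1 and 0.09 for shSuv39h2 against shNC. None of these 3 genes passed in any comparison as reported. With the feeder covariate, the H3.1K36M difference from H3.1WT turned from 0.17 to −0.55 on the log2 scale for Igf2 (limma adjusted p = 0.0398) and from 0.10 to −0.40 for Gnas (adjusted p = 0.0470). The slope of the covariate rests only on differences between libraries of the same group. The mean log2(FPKM + 1) of the markers was 4.68 and 4.67 in H3.1K36M, above the 3.64 and 4.31 of H3.1WT. These adjusted differences thus reach beyond values that both groups hold. Against H3.1K9M both also passed downward with the covariate, Igf2 at −0.64 (adjusted p = 0.0033) and Gnas at −0.26 (adjusted p = 0.0471). Of the called genes, Meg3, Mirg and Impact also had their highest value in H3.1K9M replicate 1, and the other 12 had it elsewhere.

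**Figure D4:**
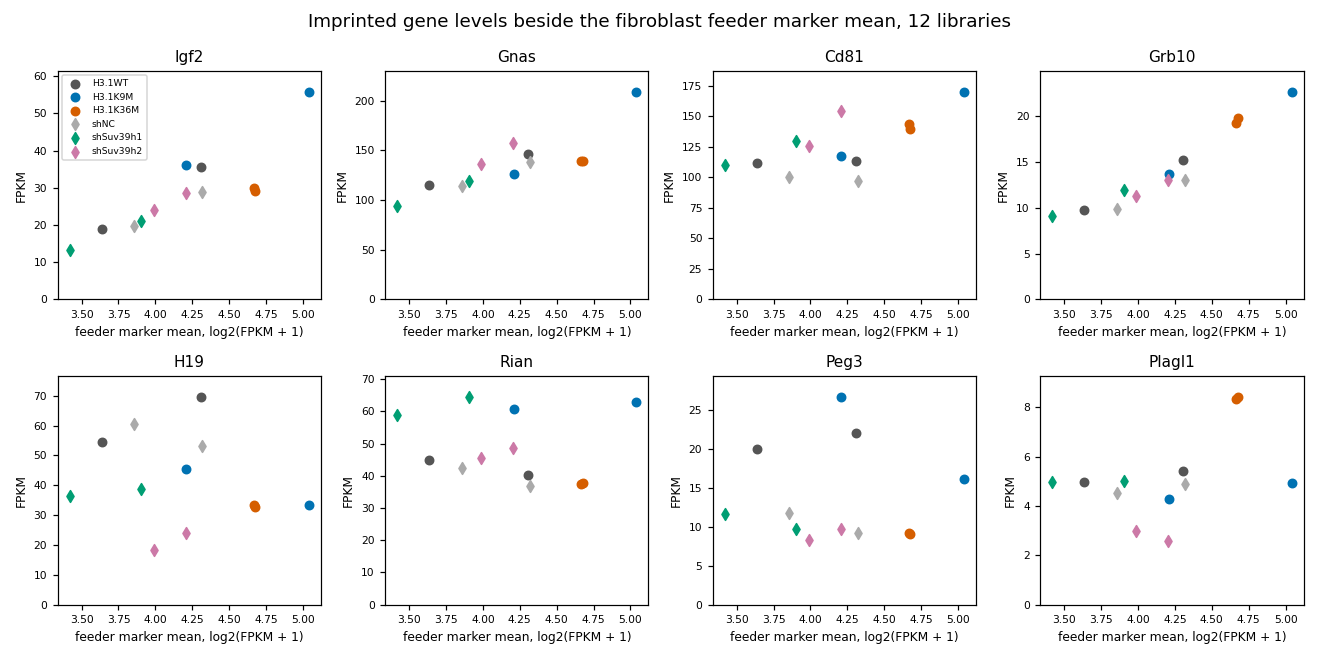
FPKM of 8 imprinted genes against the mean log2(FPKM + 1) of the fibroblast feeder markers, with a point per library coloured by group. Igf2, Gnas and Grb10 are highest in the library with the highest feeder marker mean, H3.1K9M replicate 1, while H19, Rian, Peg3 and Plagl1 are highest in other libraries.

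Other marker lists also held genes called in H3.1K36M. Of 8 stem cell markers, Nanog rose against H3.1WT, 12.5% of the list where 4.84% of all genes were called. Esrrb, Klf4, Nanog and Zfp42 were higher in H3.1K36M than in H3.1K9M, 50% of the list where 8.24% of all genes were called. Of 12 tested primitive endoderm markers, Amn and Lama1 rose and Gata4 fell against H3.1WT, 25% of the list where 4.84% of all genes were called, and the summed level of that list was 168 and 167 FPKM in H3.1K36M against 101 and 127 in H3.1WT. The summed level of 14 trophectoderm markers was 131 and 134 FPKM in H3.1WT, 98.8 and 132 in H3.1K9M, 47.2 and 47.2 in H3.1K36M, 60.4 and 53.7 in shNC, 74.5 and 77.6 in shSuv39h1, and 63.9 and 67.3 in shSuv39h2. For H3.1K36M against H3.1WT, 5 of 9 tested markers fell (Cdx2, Eomes, Hand1, Krt18 and Krt8), against 1.74% of all genes. Tead4 rose, against 3.1% of all genes. The same list stood higher in H3.1WT than in shNC, where Cdx2, Eomes, Krt18 and Krt8 passed. They were 44.4% of the tested markers, where 0.336% of all genes were called. The placental hormone gene Prl3d1 was listed at 0 in both H3.1K9M and both H3.1K36M libraries and stayed at or below 0.172 FPKM elsewhere, and Elf5 at or below 0.486 FPKM. The part of these cell type markers in the differences of H19, Mest, Peg10, Peg3, Snrpn and Plagl1 was not tested.

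Among 28 factors known to set or maintain imprints, 27 were tested. For H3.1K36M against H3.1WT, Zfp57 rose and Dnmt3a, a de novo DNA methyltransferase, fell, or 7.41% of the list where 4.84% of all genes were called. Zfp57 stood at 123 and 120.1 FPKM in H3.1WT, 127 and 111 in H3.1K9M, and 154 and 154 in H3.1K36M. It stood at 147 and 134 FPKM in shNC, 159.9 and 156 in shSuv39h1, and 179 and 178 in shSuv39h2. It was higher in both H3.1K36M than in both H3.1WT libraries (log2 difference 0.34, SE 0.0822, adjusted p = 0.0471), lost in 13 of 19 alternatives, and higher in shSuv39h2 than in shNC (log2 difference 0.34, SE 0.0822, adjusted p = 0.0282), lost in 8. Dnmt3a stood at 27.9 and 27.7 FPKM in H3.1WT, 20.3 and 19.4 in H3.1K9M, and 20.1 and 20.2 in H3.1K36M, so both mutant groups lay below H3.1WT, and H3.1K36M passed (log2 difference −0.44, SE 0.108, adjusted p = 0.0473), lost in 11 of 19, while H3.1K9M did not (log2 difference −0.46, SE 0.108, adjusted p = 0.180). For H3.1K36M against H3.1K9M, Zfp57, Ctcfl, Setdb1 and Zfp42, 4 of 27 or 14.8%, were higher in H3.1K36M, where 8.24% of all genes were called and 5.57% were higher. For shSuv39h2 against shNC, Zfp57, Eed, a subunit of the H3K27 methyltransferase complex, and Ehmt2, the H3K9 methyltransferase G9a, rose and none fell, or 11.1% of the list where 10% of all genes were called. Tet2 and Ehmt2, 2 of 27 or 7.41%, were higher in shSuv39h2 than in shSuv39h1, near the 6.56% of all genes called. Dnmt3l, a cofactor of the de novo methyltransferases, was lower in H3.1WT than in shNC (log2 difference −0.87, SE 0.141, adjusted p = 0.0428). Every call named from this list was lost when either library of the first-named group was left out. For H3.1K9M against H3.1WT and for shSuv39h1 against shNC, 0 of 27 passed in limma, with 5 and 3 at an unadjusted p below 0.05, which 11.2% and 10.6% of all genes reached.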

How the data were processed

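The authors deposited 1 FPKM value per gene symbol and library. Cuffdiff 2.2.1, TopHat2 2.0.13 and the build mm10 are listed in the submitters' processing notes. The sources used here do not give their roles, settings, annotation or scaling, or whether counting used strand. Airn and Kcnq1ot1, antisense to Igf2r and Kcnq1, are therefore uncertain. Per the labels' protocols both NEBNext Ultra and TruSeq v2 kits are named, with no library assigned.

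Tests used limma 3.58.1 in R 4.3.3 with an intensity trend on log2(FPKM + 1), two-sided, with 1 mean per group over 12 libraries (6 residual and 3.66 prior degrees of freedom) and Benjamini-Hochberg adjustment over the 13109 genes that reached 1 FPKM in 2 or more libraries. Log2 differences on this scale understate changes of low genes; folds are ratios of mean FPKM. The spread is shared over groups, so p-values may be too small for H3.1K9M. The steps were tested on simulated data for some of the comparisons. All groups were given the same spread there, so this does not check calls where groups differ in spread. The H3.1K36M libraries differed by more than counting noise, but less than those of any other group (chi-square per degree of freedom 1.77, elsewhere 3.50 to 19.3). They counted as 2 libraries, as labelled; that does not show separate cultures, and their closeness narrows the shared spread.

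Depth came from whole steps in 1159 low genes: 73.0% of 5470 values were whole within 0.05, where chance gives 10%, so it is approximate. Coordinates of promoter windows and microRNAs come from RefSeq tables on GRCm38.p6, and the gene bounds that place hairpins in hosts from the GENCODE annotation. The 38 genes, the lists and the parental origins, which come from textbook knowledge, were chosen with earlier results of these data known. Every library is given for genes that passed or whose highest group mean was at least 10 FPKM; from other lists up to 8 passing genes by smallest p were named. Alternatives were a pseudocount of 0.1, no filter or 5 FPKM, quantile normalization, median-of-ratios scaling, a replicate block, a feeder marker covariate and each library left out.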

Additional observations from a re-analysis of the deposited data

How the results depend on the processing

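The 27 calls of imprinted genes were refitted under 19 alternatives, and 4 calls passed in all 19: Rian, Peg10 and Plagl1 in H3.1K36M against H3.1K9M, and H19 in shSuv39h2 against shNC. None of the 27 reversed. Calls lost were 1 of 27 with a pseudocount of 0.1, 3 without a filter, 0 of 26 with a filter of 5 FPKM, 2 with quantile normalization, 2 with median-of-ratios scaling and 5 with the feeder marker covariate. Leaving out a library lost 1 to 18, the most without H3.1K36M replicate 1 or replicate 2; the lone library left in a group is then assumed to vary like the others. The cause of these losses was not tested. With a library left out, imprinted genes called ran from 0 to 8 for H3.1K9M against H3.1WT, 0 to 7 for H3.1K36M against H3.1WT, 3 to 11 for H3.1K36M against H3.1K9M, 0 to 1 for shSuv39h1 and 2 to 10 for shSuv39h2 against shNC, 0 to 6 between the knockdowns and 0 to 2 between the controls. All genes called ran from 2 to 696, 58 to 1189, 209 to 1422, 0 to 59, 358 to 2000, 76 to 1442 and 7 to 158 in that order. With the feeder covariate, the imprinted genes called became 0 in H3.1K9M against H3.1WT, 17 in H3.1K36M against H3.1K9M, 0 in shSuv39h1 and 11 in shSuv39h2 against shNC, and 2 between the controls, and all genes called became 25, 1949, 2196 (shSuv39h2 against shNC) and 177 (controls), from 41, 1080, 1316 and 44. The 1 call of shSuv39h1 also became 0 with the pseudocount, without a filter, with quantile normalization and with median-of-ratios scaling. Over all genes, H3.1K9M against H3.1WT gave 12 without a filter and 27 with 5 FPKM, where H3.1K36M gave 354 (634 as reported) against H3.1WT and 663 against H3.1K9M and the controls 29, and shSuv39h1 against shNC gave 11 with the pseudocount (19 as reported). The shared replicate numbers carry no stated batch or day, and deviations of same-numbered libraries correlated from −0.38 to 0.38 over the 7 comparisons. With a replicate block all 27 calls were kept, and all genes called in shSuv39h1 against shNC became 10. Imprinted genes called became 2 in H3.1K9M against H3.1WT, with Rian added, and 9 in H3.1K36M against H3.1K9M, with Mirg added. The 5 genes with every group mean under 1 FPKM were left out of the fit reported by its filter. Without a filter, Nap1l5 alone of them passed, lower in shSuv39h2 than in shSuv39h1 (log2 difference −0.42, limma adjusted p = 0.0357). In that comparison 774 of 20045 genes were called without a filter.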

Other observations

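A second list of 49 imprinted genes outside the 38 had 45 genes in the files and 26 tested. For H3.1K36M against H3.1WT, 4 of 26 rose and none fell, where 4.84% of all tested genes were called. Sfmbt2, a paternal polycomb-related gene, stood at 5.52 and 6.29 FPKM in H3.1WT, 5.92 and 7.71 in H3.1K9M, and 12.6 and 12.7 in H3.1K36M. Both H3.1K36M libraries lay above every other library of the arm (log2 difference 0.98, SE 0.129, adjusted p = 0.00325), and the call was lost without H3.1K36M replicate 1 (adjusted p = 0.0563) and without H3.1K36M replicate 2 (0.0557). Smoc1, a matricellular protein gene, stood at 10.8 and 10.4 FPKM in H3.1WT, 9.98 and 9.61 in H3.1K9M, and 15.8 and 15.3 in H3.1K36M. It rose in H3.1K36M (log2 difference 0.52, SE 0.0926, adjusted p = 0.0143). Cobl, an actin nucleator gene beside Grb10, also rose (log2 difference 0.60, SE 0.118, adjusted p = 0.0212), as did Peg12, a gene of the Prader-Willi region (log2 difference 0.61, SE 0.142, adjusted p = 0.0415). Without either H3.1WT library or either H3.1K36M library, Smoc1, Cobl and Peg12 did not pass.

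In the knockdown arm Smoc1 stood at 12.2 and 12.3 FPKM in shNC, 8.70 and 9.96 in shSuv39h1, and 4.45 and 5.11 in shSuv39h2. It was 2.57-fold lower in shSuv39h2 than in shNC (log2 difference −1.20, SE 0.0926, adjusted p = 0.000250) and lower than in shSuv39h1 (log2 difference −0.84, SE 0.0926, adjusted p = 0.00255), and both calls were kept in all 19 alternatives. Atp10a, a phospholipid flippase gene, was lower in shSuv39h2 than in shNC (log2 difference −0.48, SE 0.113, adjusted p = 0.0260), a call lost without shNC replicate 1, without either shSuv39h2 library and without either H3.1K36M library. Smoc1 and Atp10a were 2 of 26, or 7.69%, where 10% of all genes were called. Ddc, the dopa decarboxylase gene beside Grb10, was higher in H3.1K36M than in H3.1K9M (log2 difference 0.51, SE 0.119, adjusted p = 0.0293) and lower in shSuv39h2 than in shSuv39h1 (log2 difference −0.49, SE 0.119, adjusted p = 0.0411), and the first was lost in 5 of 19 alternatives, among them those without either H3.1K36M library and without H3.1K9M replicate 1, and the second without any 1 of the 4 knockdown libraries. In the other contrasts of an altered line with its control, H3.1K9M and shSuv39h1, 0 of 26 passed in limma, with 1 and 4 at an unadjusted p below 0.05, which 11.2% and 10.6% of all genes reached.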
